A study of Homo sapiens with 6 samples.

Results

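The genes described here encode the kinetochore, the spindle checkpoint and the condensin complexes, together with the kinases and spindle proteins that act with them in mitosis. They were chosen by name, as a list of 53 genes read by symbol in the deposited gene table, and 51 of the 53 were found among its 22152 genes. The levels of PMF1 and SPAG5 were not analysed here. All 51 reached a value of 10 in at least 3 libraries and were among the 14795 genes tested.

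The samples were HaCaT cells, a human keratinocyte line that became immortal spontaneously, transfected with a synthetic microRNA mimic. The NC mimic group (3 libraries) received a negative control mimic at 1 nM and the miR-21-3p mimic group (3 libraries) received a mimic of miR-21-3p at 1 nM. RNA was taken 48 h after transfection in both groups and sequenced as biological replicates, as polyadenylated RNA by the sample labels, whereas the methods of the study speak of small RNA libraries, and p-values measure the spread between these samples. The comparison asks which transcripts differ when the 3′ strand of the miR-21 precursor is supplied in excess, in a single immortal line, so that the values describe HaCaT and not primary epidermis.

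The values were gene counts divided by a size factor for each library, deposited to 3 significant digits and called normalised counts below. The whole reads recovered from them summed to about 24402972, 24528089 and 26171030 in NC mimic replicates 1, 2 and 3, and to about 24805157, 24975443 and 27982497 in miR-21-3p mimic replicates 1, 2 and 3. Wherever values are listed, they follow that replicate order. Fold changes are differences of mean log2(normalised count + 1), miR-21-3p mimic minus NC mimic, and a gene was called when its Benjamini-Hochberg adjusted p over all genes tested was under 0.05 in limma. Normalised counts were not divided by gene length, so levels are compared between libraries and never between genes.

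The keratinocyte label was checked against marker genes. Of 10 keratinocyte markers 9 were in the table, with summed normalised counts of 337200, 322700 and 337200 in the NC mimic libraries and 343300, 352200 and 326600 in the miR-21-3p mimic libraries, and KRT5 was the most abundant. KRT6A, a keratin of activated keratinocytes, was the only marker of the 9 called by limma with all libraries, at 16800, 17100 and 16500 in the NC mimic libraries against 21500, 20700 and 21700 in the miR-21-3p mimic libraries (log2 fold change 0.34, limma adjusted p 0.00207). Without NC mimic replicate 2, described below, KRT6A and SFN were called higher and TP63 lower, and with all libraries SFN was also called by DESeq2 (0.14, adjusted p 0.0327) and by limma on values scaled to library totals (0.16, adjusted p 0.0468). Of 8 fibroblast markers only COL1A1 was listed, with 560, 390 and 478 in the NC mimic libraries and 372, 378 and 364 in the miR-21-3p mimic libraries. COL1A1 was not called by limma with all libraries (log2 fold change -0.34, adjusted p 0.0641), but was called lower by DESeq2 with all libraries (-0.36, adjusted p 0.0256) and by limma without NC mimic replicate 2 (-0.48, adjusted p 0.00186), and its part in the results below was not tested. Of 7 melanocyte markers PMEL and MITF were listed, with summed normalised counts of 631, 630 and 640 in the NC mimic libraries and 586, 616 and 585 in the miR-21-3p mimic libraries. The sum and MITF alone (476, 510 and 512 against 441, 464 and 459) were lower in every miR-21-3p mimic library, but MITF was not called in any alternative (log2 fold change -0.13, limma adjusted p 0.218 with all libraries), nor was PMEL, and their part in the results below was not tested. Of 8 immune markers CD14 alone was listed, at 89.6, 58.7 and 79.1 against 91.8, 92.2 and 69.1. The remaining markers were not analysed here.

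A kinetochore is built on each centromere, where nucleosomes holding the histone H3 variant CENPA carry an inner layer of CENP proteins and, through the MIS12 complex, an outer layer that grips spindle microtubules. While any kinetochore is unattached, the spindle checkpoint holds back CDC20, the activator of the anaphase-promoting complex, and the chromosomal passenger complex releases wrong attachments. Condensins fold the chromosomes into compact rods, and many of these genes are transcribed mostly in G2 and mitosis, so that their transcripts are high in dividing basal keratinocytes and low in cells that have left the cycle.

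Promoter windows were searched because most of these genes moved together, as the values below show. RefSeq windows of GRCh38.p14, each running from 250 bases before to 50 bases after the start of the gene, matched 43 of the 53 genes and 41 of the 51 tested. The letters searched on both strands were TTTGAA, the core of the cell-cycle homology region found in many G2 and mitosis genes, CCAAT, the box bound by NF-Y, and TTTCCCGC, a site of the E2F type, and they were chosen after the fold changes were known. TTTGAA was present in 25 of the 41 windows (61%), against 15.2% of all 35116 windows and 12.4% of the 22199 windows of protein-coding genes. It lay within 50 bases of the start in 21 of the 41 (51.2%), against 3.51% of protein-coding windows, a distance set after the positions had been seen. CCAAT was present in 26 of the 41 (63.4%) against 34.6% of all windows, and at 2 or more places in 18 of the 41 (43.9%) against 10.8%. TTTCCCGC was present in 2 of the 41 (4.88%) against 1.63%. A match describes the letters of a window and is not a measured binding site.

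The 150 bases before the start are shown for 5 genes that were called higher and hold TTTGAA there, from the centromere, checkpoint, passenger, spindle and chromosome surface sets, and for NSL1, whose window holds none of the searched letters and whose level hardly differed between the groups. They were picked after values and matches were known, and capitals mark TTTGAA and CCAAT, or ATTGG, which is CCAAT on the other strand. Other genes did not follow this contrast. The windows of CENPE and NCAPD3, both called higher, also held none of the searched letters. The window of MIS12, whose level also hardly differed, held CCAAT and TTTCCCGC. The shares by call are given below. CENPA is at chr2:26785906-26786055 (+), CDC20 at chr1:43358831-43358980 (+), CDCA8 at chr1:37692366-37692515 (+), PLK1 at chr16:23678739-23678888 (+), MKI67 at chr10:128126424-128126573 (-) and NSL1 at chr1:212791778-212791927 (-), each written 5′ to 3′ on the strand of the gene.
CENPA: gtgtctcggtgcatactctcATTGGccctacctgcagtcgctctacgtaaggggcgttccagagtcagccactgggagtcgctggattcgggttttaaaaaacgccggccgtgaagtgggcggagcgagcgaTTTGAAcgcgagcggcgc
CDC20: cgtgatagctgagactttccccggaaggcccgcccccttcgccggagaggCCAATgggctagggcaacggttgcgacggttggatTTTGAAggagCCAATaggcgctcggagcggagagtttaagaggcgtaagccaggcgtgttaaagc
CDCA8: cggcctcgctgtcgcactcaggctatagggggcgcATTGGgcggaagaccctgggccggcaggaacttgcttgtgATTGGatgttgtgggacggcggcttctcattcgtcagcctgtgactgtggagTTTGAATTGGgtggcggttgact
PLK1: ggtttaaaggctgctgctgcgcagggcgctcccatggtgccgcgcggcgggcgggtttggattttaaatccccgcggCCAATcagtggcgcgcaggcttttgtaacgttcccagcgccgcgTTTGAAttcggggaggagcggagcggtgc
MKI67: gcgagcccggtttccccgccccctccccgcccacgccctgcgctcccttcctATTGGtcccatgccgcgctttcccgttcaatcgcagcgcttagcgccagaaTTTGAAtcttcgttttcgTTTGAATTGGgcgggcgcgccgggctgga
NSL1: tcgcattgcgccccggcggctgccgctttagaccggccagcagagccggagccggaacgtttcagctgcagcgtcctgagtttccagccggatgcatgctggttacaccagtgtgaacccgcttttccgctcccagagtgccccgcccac
Counted from the start, TTTGAA began at -18 in CENPA, -65 in CDC20, -23 in CDCA8, -29 in PLK1, and -47 and -29 in MKI67. In CDCA8 and in the copy of MKI67 at -29, the last base of TTTGAA was also the first base of a CCAAT match on the other strand. TTTGAA and CCAAT occurred together in 15 of the 41 windows (36.6%), against 5.9% of all windows.

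The libraries were not evenly placed, and NC mimic replicate 2 stood apart from its group. On the first principal component, which held 46.7% of the variance, the NC mimic libraries lay at 21.2, 1.95 and 13.3 and the miR-21-3p mimic libraries at -11.8, -6.86 and -17.9, so that NC mimic replicate 2 was the control nearest to the miR-21-3p mimic libraries. The same library had the highest NC mimic value in 49 of the 51 genes (96.1%), against 36.1% of all genes tested. NC mimic replicate 1 was lowest of its group in 45 of the 51 (88.2%, against 36.7%), and miR-21-3p mimic replicate 3 was highest of its group in 47 (92.2%, against 36.8%). Relative to the mean of the NC mimic libraries, the median of the 51 genes on the log2 scale was -0.12, 0.15 and -0.02 in the NC mimic libraries and 0.25, 0.24 and 0.36 in the miR-21-3p mimic libraries. The genes thus moved as a block among the NC mimic libraries and in miR-21-3p mimic replicate 3, as well as between groups. The medians of miR-21-3p mimic replicates 1 and 2 were nearly equal. The median within-group SD of log2 values over the 51 genes was 0.15 in the NC mimic and 0.07 in the miR-21-3p mimic libraries, and 45 of the 51 (88.2%) varied more among the NC mimic libraries, against 55.5% of all genes tested. The results are therefore given with and without NC mimic replicate 2, by gene or by set.

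**Figure D1:**
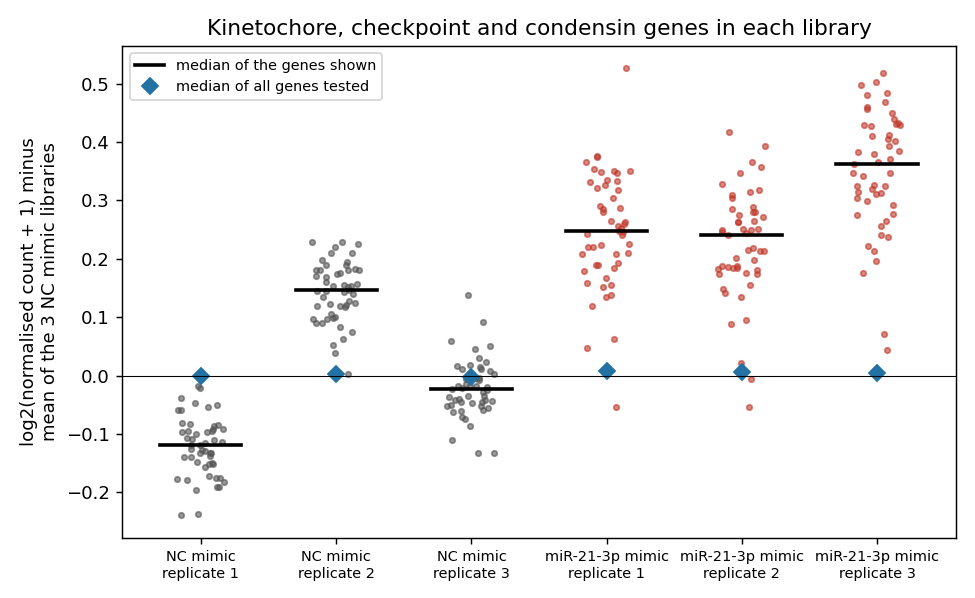
Log2(normalised count + 1) of each of the 51 genes in each library, minus the mean of the 3 NC mimic libraries, with black bars at the median of the 51 genes and diamonds at the median of all genes tested. The medians of the 51 genes were highest in the 3 miR-21-3p mimic libraries, NC mimic replicate 2 was the highest control at 0.15, and the diamonds stayed near 0 in all 6 libraries.

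With all 6 libraries, 33 of the 51 genes were called higher in the miR-21-3p mimic group, where 6.11% of all genes tested were called higher. None of the 51 was called lower by limma, where 4.66% of all genes tested were called lower, and the count of lower calls was also 0 by edgeR and by DESeq2 on the recovered reads. At an unadjusted limma p under 0.05, 47 of the 51 were higher and 0 lower, against 15.3% and 13.2% of all genes tested. In 38 of the 51 every miR-21-3p mimic library was above every NC mimic library, against 16.5% of all genes tested, and in 0 of the 51 every one was below, against 14.8%. The median log2 fold change was 0.29, ranging from -0.006 for NSL1 to 0.44 for MAD2L1, beside a median of 0.0044 over all genes tested. Of the 51, 50 had a fold change above 0, against 51.0% of all genes tested. The sizes were modest, as 271 of the genes tested had a fold change at least as large as that of MAD2L1, and the median over all genes called higher was 0.29. In these bulk samples, more cells in G2 and mitosis and more of each transcript per cell cannot be told apart.

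The summed normalised count of the 51 genes showed the same order of libraries. It made up 0.596%, 0.726% and 0.641% of the library total in the NC mimic libraries and 0.79%, 0.771% and 0.845% in the miR-21-3p mimic libraries. All 3 miR-21-3p mimic shares were above all 3 NC mimic shares, with the smallest gap at NC mimic replicate 2. Set against that control alone, 44, 40 and 50 of the 51 genes were higher in miR-21-3p mimic replicates 1, 2 and 3, against 7397, 7271 and 7388 of all 14795 genes tested. The 2 groups overlapped in 13 of the 51 genes. Without NC mimic replicate 2, 48 of the 51 had every miR-21-3p mimic library above the other controls, against 25.6% of all genes tested, and the groups overlapped in the remaining 3, namely MIS12, NSL1 and SGOL1.

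The number of calls depended strongly on which library was left out, while the median fold change stayed between 0.22 and 0.36. Without NC mimic replicate 2, 46 of the 51 genes were called higher, against 11.0% of all genes tested, with a median of 0.36. Without NC mimic replicate 1 the count was 11, against 2.12%, and without NC mimic replicate 3 it was 2, against 0.642%, those being BIRC5 and MAD2L1. Without miR-21-3p mimic replicate 1 the count was 9, against 0.987%, and without miR-21-3p mimic replicate 3 also 9, against 1.37%. Without miR-21-3p mimic replicate 2 it was 31, against 6.08%. Calls over all genes fell or rose together with those of the 51. Of the 51 genes, BIRC5 alone was called in all 14 alternatives run, which were these 6 and 8 others on normalisation, filter, test, block and pseudocount. CENPA, CENPH, CASC5, BUB1, CKAP5 and MKI67 lost their call only without NC mimic replicate 3, and MAD2L1 only without miR-21-3p mimic replicate 1 (log2 fold change 0.39, limma adjusted p 0.0571, against 0.00065 to 0.0444 in its other limma alternatives). The remaining 25 called genes lost their call in at least 2 of the alternatives. With all libraries kept and no replicate block, CENPO (limma adjusted p 0.0591), HMMR (0.0508) and NCAPG (0.0509) lost it when values were scaled to library totals, CENPO (0.0563) and HMMR (0.0508) without the filter, and NDC80 by DESeq2 (adjusted p 0.0748), while CENPI and SMC2 gained a call by DESeq2 (0.042 and 0.047). The calls given below are those of limma unless another tool is named. Where the calls of a set without each of the other 5 libraries are listed, the order is NC mimic replicates 1 and 3, then miR-21-3p mimic replicates 1, 2 and 3.

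**Figure D2:**
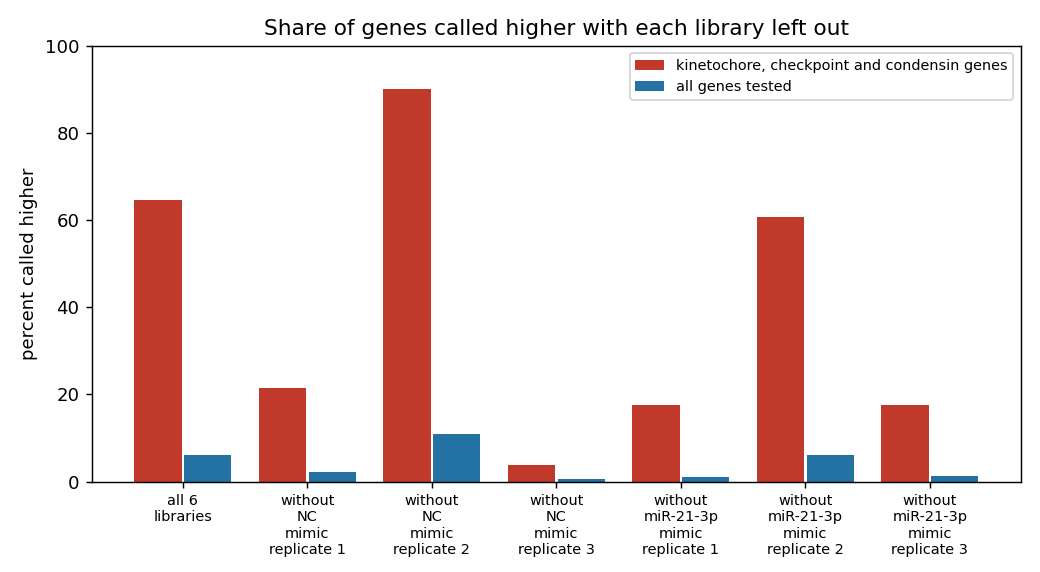
Percent of genes called higher in the miR-21-3p mimic group by limma with all 6 libraries and with each library left out in turn, for the 51 genes and for all genes tested. The share of the 51 genes ran from 3.92% without NC mimic replicate 3 to 90.2% without NC mimic replicate 2, and was above the share of all genes tested in every setting shown.

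Of the inner centromere proteins 3 of 10 were called by limma with all libraries (4 of 10 by DESeq2) and 9 of 10 without NC mimic replicate 2, with medians of 0.26 and 0.34. The calls without each of the others numbered 2, 0, 2, 4 and 2. CENPA, whose promoter is shown above, gave 891, 974 and 884 in the NC mimic libraries and 1180, 1150 and 1130 in the miR-21-3p mimic libraries. The groups did not overlap, and the spread inside each was small beside the gap between them. Its log2 fold change was 0.33 ± 0.06 (SE; limma adjusted p 0.00764), or 0.38 without NC mimic replicate 2. An exon of CENPA overlaps SLC35F6 on the same strand in GENCODE release 29, so reads there could come from either gene. Whether such reads were counted or left out was not given in the sources used here. CENPH, a member of the CENP-H/I/K/M group that joins the centromere to the outer layer, gave 578, 678 and 600 against 789, 825 and 831. All 3 miR-21-3p mimic libraries were well above the highest control, and the fold change of 0.40 ± 0.07 (limma adjusted p 0.00806; 0.47 without NC mimic replicate 2) was the largest of the 10 with all libraries. CENPO, of the CENP-O/P/Q/U/R group, gave 681, 851 and 729 against 945, 828 and 1060. The groups overlapped, because NC mimic replicate 2 exceeded miR-21-3p mimic replicate 2, and the call was marginal (0.32 ± 0.10, limma adjusted p 0.0493; 0.42 without NC mimic replicate 2), being lost with total scaling and without the filter.

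The other 7 inner proteins were not called by limma with all libraries, although CENPI was called by DESeq2 (0.29, adjusted p 0.042), and each had a fold change above 0 and an unadjusted p under 0.05. CENPI, a partner of CENPH, gave 491, 617 and 564 in the NC mimic libraries and 661, 629 and 758 in the miR-21-3p mimic libraries. CENPK, of the same group, gave 1010, 1170 and 1140 against 1230, 1180 and 1320. CENPM, the small subunit of the group, gave 194, 245 and 252 against 279, 277 and 298. In these 3 genes no libraries overlapped between groups, but NC mimic replicate 2 came within a few percent of the lowest miR-21-3p mimic library in CENPI and CENPK. CENPL, which with CENPN contacts the CENPA nucleosome, gave 452, 530 and 436 against 526, 560 and 570. CENPN gave 1090, 1270 and 1200 against 1330, 1300 and 1470. Only CENPL of this pair overlapped between groups, at NC mimic replicate 2. CENPQ, which works beside CENPO, gave 312, 334 and 355 against 381, 388 and 393. CENPW, a histone-fold protein that binds centromeric DNA with CENPT, gave 312, 365 and 316 against 385, 366 and 411. Neither gene overlapped between groups, and CENPQ was the only member of the 7 that was also not called without NC mimic replicate 2 (0.22, limma adjusted p 0.104). The fold changes of the 7 ran from 0.17 for CENPK to 0.31 for CENPM.

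Both proteins of the fibrous corona, the outermost layer that catches microtubules, were called with all libraries and without NC mimic replicate 2, while 0, 0, 0, 2 and 0 of the 2 were without each of the others. CENPF, a large coiled-coil protein of the corona, gave 10300, 12700 and 10900 in the NC mimic libraries and 14200, 13400 and 14500 in the miR-21-3p mimic libraries. The groups did not overlap, and the log2 fold change was 0.32 ± 0.07 (limma adjusted p 0.0156; 0.41 without NC mimic replicate 2). CENPE, the kinesin that carries chromosomes to the spindle equator, gave 1720, 2280 and 1950 against 2510, 2240 and 2620. The highest control, NC mimic replicate 2, was above miR-21-3p mimic replicate 2, and the fold change was 0.32 ± 0.09 (limma adjusted p 0.0398; 0.42 without that control).

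In the NDC80 complex, the rod that binds microtubules directly, 3 of 4 genes were called by limma with all libraries (2 of 4 by DESeq2) and 4 of 4 without NC mimic replicate 2, with medians of 0.27 and 0.36. Leaving out each of the others gave 0, 0, 0, 2 and 0. NUF2, which forms the microtubule-binding end with NDC80, gave 1130, 1330 and 1220 in the NC mimic libraries and 1470, 1450 and 1520 in the miR-21-3p mimic libraries. The groups were apart, with a log2 fold change of 0.27 ± 0.06 (limma adjusted p 0.019; 0.33 without NC mimic replicate 2). SPC24, at the inner end of the rod, gave 548, 690 and 597 against 759, 740 and 800. It had the largest fold change of the complex, 0.33 ± 0.08 (limma adjusted p 0.0256; 0.42 without NC mimic replicate 2). SPC25, its partner, gave 288, 359 and 280 against 359, 356 and 401. Here NC mimic replicate 2 equalled miR-21-3p mimic replicate 1, and the fold change of 0.27 ± 0.10 was not called (limma adjusted p 0.102; 0.39 and adjusted p 0.00952 without that control). NDC80 itself had a fold change of 0.21 (limma adjusted p 0.0431) and was not called by DESeq2 (adjusted p 0.0748).

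The MIS12 complex, which joins the inner centromere to NDC80 and KNL1, was the set with the smallest median of the 14, 0.03 with all libraries and 0.09 without NC mimic replicate 2. By limma 0 of its 3 genes in the table were called, with 1 at an unadjusted p under 0.05, and by edgeR and by DESeq2 the count was also 0, as it was by limma with any library but NC mimic replicate 2 left out. MIS12 gave 1540, 1670 and 1590 in the NC mimic libraries and 1670, 1540 and 1680 in the miR-21-3p mimic libraries. The groups lay over each other, and the 95% confidence interval of the log2 fold change of 0.03 ran from -0.09 to 0.14. NSL1, whose promoter is shown above, gave 523, 656 and 555 against 554, 573 and 593. NC mimic replicate 2 held the highest value of all 6 libraries, and the interval around -0.006 ran from -0.19 to 0.18, turning to 0.09 without that control (limma adjusted p 0.445). DSN1, the third subunit listed, gave 1350, 1580 and 1370 against 1630, 1520 and 1760. It overlapped at NC mimic replicate 2 only, with 0.19 ± 0.07 (limma adjusted p 0.0976), and was called without it (0.26, adjusted p 0.00999). The upper bounds for MIS12 and NSL1 lay below the median of 0.29 of all 51 genes, whereas a difference between this complex and the others was not tested.

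CASC5, also named KNL1, is the scaffold on which checkpoint proteins gather, and it gave 3840, 4710 and 4060 in the NC mimic libraries and 5430, 5190 and 5750 in the miR-21-3p mimic libraries. Every miR-21-3p mimic library was above every control, and the log2 fold change was 0.38 ± 0.07 (limma adjusted p 0.00883; 0.47 without NC mimic replicate 2). ZWINT, its binding partner, gave 2120, 2810 and 2310 against 2770, 2720 and 3050. NC mimic replicate 2 exceeded 2 of the miR-21-3p mimic libraries, and the fold change of 0.25 ± 0.09 was called only without that control (limma adjusted p 0.0821 with it and 0.000936 without it, at 0.36). Among these 2 genes, leaving out each of the other libraries gave 1, 0, 1, 1 and 1 calls.

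The spindle checkpoint had the largest median of the 14 sets, 0.38 with all libraries and 0.47 without NC mimic replicate 2, with 5 of 6 and 6 of 6 genes called, and 2, 1, 1, 4 and 2 without each of the others. MAD2L1, which closes around CDC20 to block it, gave 582, 716 and 681 in the NC mimic libraries and 947, 842 and 886 in the miR-21-3p mimic libraries. The groups were clearly apart, and its log2 fold change of 0.44 ± 0.08 (limma adjusted p 0.00911; 0.50 without NC mimic replicate 2) was the largest of the 51 genes with all libraries. CENPH was largest without NC mimic replicate 1 (0.353), and CDC20 was largest without NC mimic replicate 2 (0.503) and without miR-21-3p mimic replicate 1 (0.426). CDC20, the protein that the checkpoint holds, gave 2450, 3130 and 2530 against 3370, 3420 and 3810. Among the controls NC mimic replicate 2 stood well above the others but below every miR-21-3p mimic library, and the fold change was 0.39 ± 0.08 (limma adjusted p 0.0144; 0.50 without it). BUB3, which brings BUB1 and BUB1B to the scaffold, gave 4860, 5600 and 5280 against 5970, 5950 and 6110. The groups did not overlap in BUB3, at a smaller fold change of 0.20 ± 0.05 (limma adjusted p 0.0329; 0.25 without NC mimic replicate 2). TTK, the kinase that starts the signal, gave 1890, 2380 and 2080 against 2320, 2380 and 2490. The value of NC mimic replicate 2 equalled miR-21-3p mimic replicate 2 and passed replicate 1, and TTK was not called (0.19 ± 0.07, limma adjusted p 0.113), but was without that control (0.27, adjusted p 0.00443). The kinase BUB1 and its relative BUB1B, a part of the inhibitory complex, had fold changes of 0.39 and 0.37 (limma adjusted p 0.0106 and 0.0148). Exons of BUB1B overlap the readthrough gene BUB1B-PAK6 on the same strand, so reads there could come from either gene and may have been left out.

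**Figure D3:**
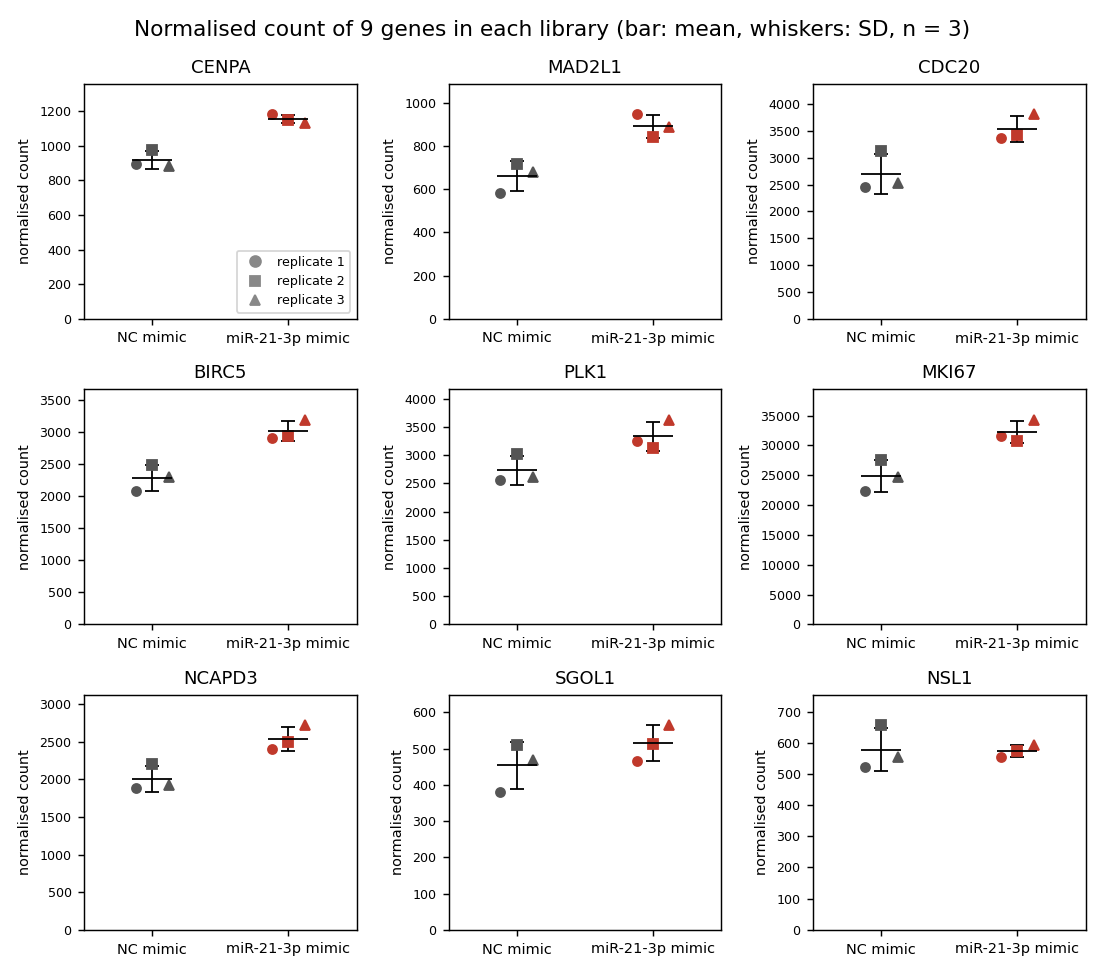
Normalised counts of 9 genes in the 3 NC mimic and 3 miR-21-3p mimic libraries, with horizontal bars at the mean and whiskers of 1 SD (n = 3). CENPA, MAD2L1, CDC20, BIRC5, PLK1, MKI67 and NCAPD3 had all miR-21-3p mimic libraries above all NC mimic libraries, while SGOL1 and NSL1 overlapped, and the square of NC mimic replicate 2 was the highest control in all 9 panels.

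All 4 genes of the chromosomal passenger complex were called with all libraries, and 4 of 4 without NC mimic replicate 2, with medians of 0.31 and 0.37. Leaving out each of the others gave 2, 1, 1, 4 and 2 calls. BIRC5, or survivin, which guides the complex to the centromere, gave 2080, 2480 and 2300 in the NC mimic libraries and 2900, 2940 and 3190 in the miR-21-3p mimic libraries. The lowest miR-21-3p mimic library was far above the highest control, and the log2 fold change was 0.40 ± 0.06 (limma adjusted p 0.00554; 0.46 without NC mimic replicate 2). INCENP, the scaffold that binds and activates the kinase, gave 3230, 3600 and 3280 against 3810, 3800 and 4330. The groups did not overlap, at 0.24 ± 0.06 (limma adjusted p 0.0283; 0.29 without NC mimic replicate 2). CDCA8, or borealin, whose promoter is shown above, and the kinase AURKB both had fold changes of 0.31 (limma adjusted p 0.0178 and 0.0108).

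The shugoshins, which shield centromeric cohesin until anaphase, were not called by limma with all libraries, 0 of 2, with 1 at an unadjusted p under 0.05 and 0 by edgeR and by DESeq2. The count by limma was also 0 with any library but NC mimic replicate 2 left out. SGOL1 gave 381, 510 and 469 in the NC mimic libraries and 465, 513 and 564 in the miR-21-3p mimic libraries. The ranges crossed for NC mimic replicates 2 and 3, and the 95% confidence interval around 0.19 ran from -0.04 to 0.42. SGOL2 gave 1920, 2390 and 2210 against 2460, 2410 and 2710. Its groups were just apart, at 0.22 ± 0.07 (limma adjusted p 0.0732), and it was called without NC mimic replicate 2 (0.29, adjusted p 0.00691), unlike SGOL1 (0.28, adjusted p 0.0676).

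In the SKA complex, which keeps kinetochores on shortening microtubules, 2 of 3 genes were called with all libraries and 3 of 3 without NC mimic replicate 2, but 0, 0, 0, 2 and 0 without each of the others. SKA3 gave 894, 1120 and 872 in the NC mimic libraries and 1180, 1110 and 1370 in the miR-21-3p mimic libraries. With all libraries it had the largest fold change of the complex, 0.35 ± 0.10 (limma adjusted p 0.0398; 0.46 without NC mimic replicate 2), although that control was above miR-21-3p mimic replicate 2. SKA2 gave 2130, 2440 and 2320 against 2490, 2610 and 2590. Its groups did not overlap, but the difference was small, 0.16 ± 0.06, and was called only without NC mimic replicate 2 (0.20, limma adjusted p 0.0171, against 0.0785 with it). SKA1, which binds the microtubule, had a fold change of 0.30 (limma adjusted p 0.0291).

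All 5 spindle assembly genes in the table were called with all libraries and without NC mimic replicate 2, with medians of 0.29 and 0.37. The calls fell to 2, 0, 2, 4 and 1 of 5 without each of the others, CKAP5 being the only call without miR-21-3p mimic replicate 3. CKAP5, a microtubule polymerase, gave 7890, 8600 and 8030 in the NC mimic libraries and 9690, 9720 and 9900 in the miR-21-3p mimic libraries. The miR-21-3p mimic values were nearly level and far above the controls, and the log2 fold change was 0.26 ± 0.04 (limma adjusted p 0.00816; 0.30 without NC mimic replicate 2). AURKA, the spindle pole kinase, gave 1860, 2290 and 2020 against 2560, 2530 and 2860. It had the largest fold change of the set, 0.37 ± 0.07 (limma adjusted p 0.0116; 0.45 without NC mimic replicate 2). PLK1, a kinase of poles and kinetochores whose promoter is shown above, gave 2560, 3030 and 2620 against 3260, 3130 and 3630. NC mimic replicate 2 came close to miR-21-3p mimic replicate 2 without passing it, and the fold change was 0.29 ± 0.07 (limma adjusted p 0.0237; 0.36 without it). TPX2, the activator of AURKA, and HMMR, a spindle protein also known as a hyaluronan receptor, had fold changes of 0.34 and 0.27 (limma adjusted p 0.0152 and 0.0443), the call of HMMR being lost with total scaling or without the filter (0.0508 in each).

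MKI67, the protein that coats mitotic chromosomes and is stained as Ki-67 to count cycling cells, gave 22300, 27600 and 24700 in the NC mimic libraries and 31600, 30800 and 34300 in the miR-21-3p mimic libraries. Every miR-21-3p mimic library was above every control, of which NC mimic replicate 2 was the highest, and the log2 fold change was 0.38 ± 0.07 (limma adjusted p 0.0104; 0.46 without NC mimic replicate 2). TOP2A, the topoisomerase that untangles sister chromatids, had a fold change of 0.24 (limma adjusted p 0.0268; 0.30 without NC mimic replicate 2). Its call was lost without NC mimic replicates 1 or 3 or miR-21-3p mimic replicates 1 or 3. Of the 2 genes, 1, 0, 1, 2 and 1 were called without each of the libraries other than NC mimic replicate 2.

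Condensins I and II share the SMC2 and SMC4 ATPases. SMC4 gave 13300, 16400 and 14700 in the NC mimic libraries and 17900, 17700 and 18500 in the miR-21-3p mimic libraries. The groups did not overlap, with a log2 fold change of 0.29 ± 0.07 (limma adjusted p 0.0186; 0.37 without NC mimic replicate 2), and SMC4 was not called without NC mimic replicates 1 or 3 or miR-21-3p mimic replicates 1 or 3. SMC2 gave 4940, 6520 and 5560 against 6660, 6360 and 6900. As in CENPE, NC mimic replicate 2 exceeded miR-21-3p mimic replicate 2, and SMC2 was not called by limma (0.24 ± 0.08, adjusted p 0.075), but was called by limma without that control (0.34, adjusted p 0.000946) and by DESeq2 with all libraries (0.22, adjusted p 0.047).

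All 3 subunits particular to condensin I were called with all libraries and without NC mimic replicate 2, at nearly equal fold changes with medians of 0.29 and 0.36. With each of the others left out, 0, 0, 0, 3 and 0 of the 3 were called. NCAPD2, a HEAT-repeat subunit, gave 7360, 8790 and 7750 in the NC mimic libraries and 9430, 9540 and 10100 in the miR-21-3p mimic libraries. NCAPG, the other HEAT-repeat subunit, gave 1080, 1400 and 1240 against 1480, 1430 and 1630. In both genes NC mimic replicate 2 was the control nearest to the miR-21-3p mimic libraries without reaching them. Limma adjusted p was 0.0155 for NCAPD2, 0.043 for NCAPG and 0.0217 for NCAPH, the kleisin that closes the ring, and that of NCAPG was 0.0509 with total scaling.

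Of the 3 subunits particular to condensin II, which works in the nucleus before the envelope opens, 2 were called with all libraries and without NC mimic replicate 2, and 1, 0, 1, 2 and 0 without each of the others. NCAPD3 gave 1890, 2210 and 1930 in the NC mimic libraries and 2400, 2500 and 2720 in the miR-21-3p mimic libraries. The groups were apart, with the largest fold change of any condensin gene listed, 0.34 ± 0.07 (limma adjusted p 0.0112; 0.41 without NC mimic replicate 2). NCAPH2, the kleisin, gave 829, 864 and 830 against 923, 854 and 964. Here miR-21-3p mimic replicate 2 fell inside the control range, and the 95% confidence interval around 0.12 ran from -0.02 to 0.25, with no call without NC mimic replicate 2 either (0.14, limma adjusted p 0.178). NCAPG2 had a fold change of 0.24 (limma adjusted p 0.0251).

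**Figure D4:**
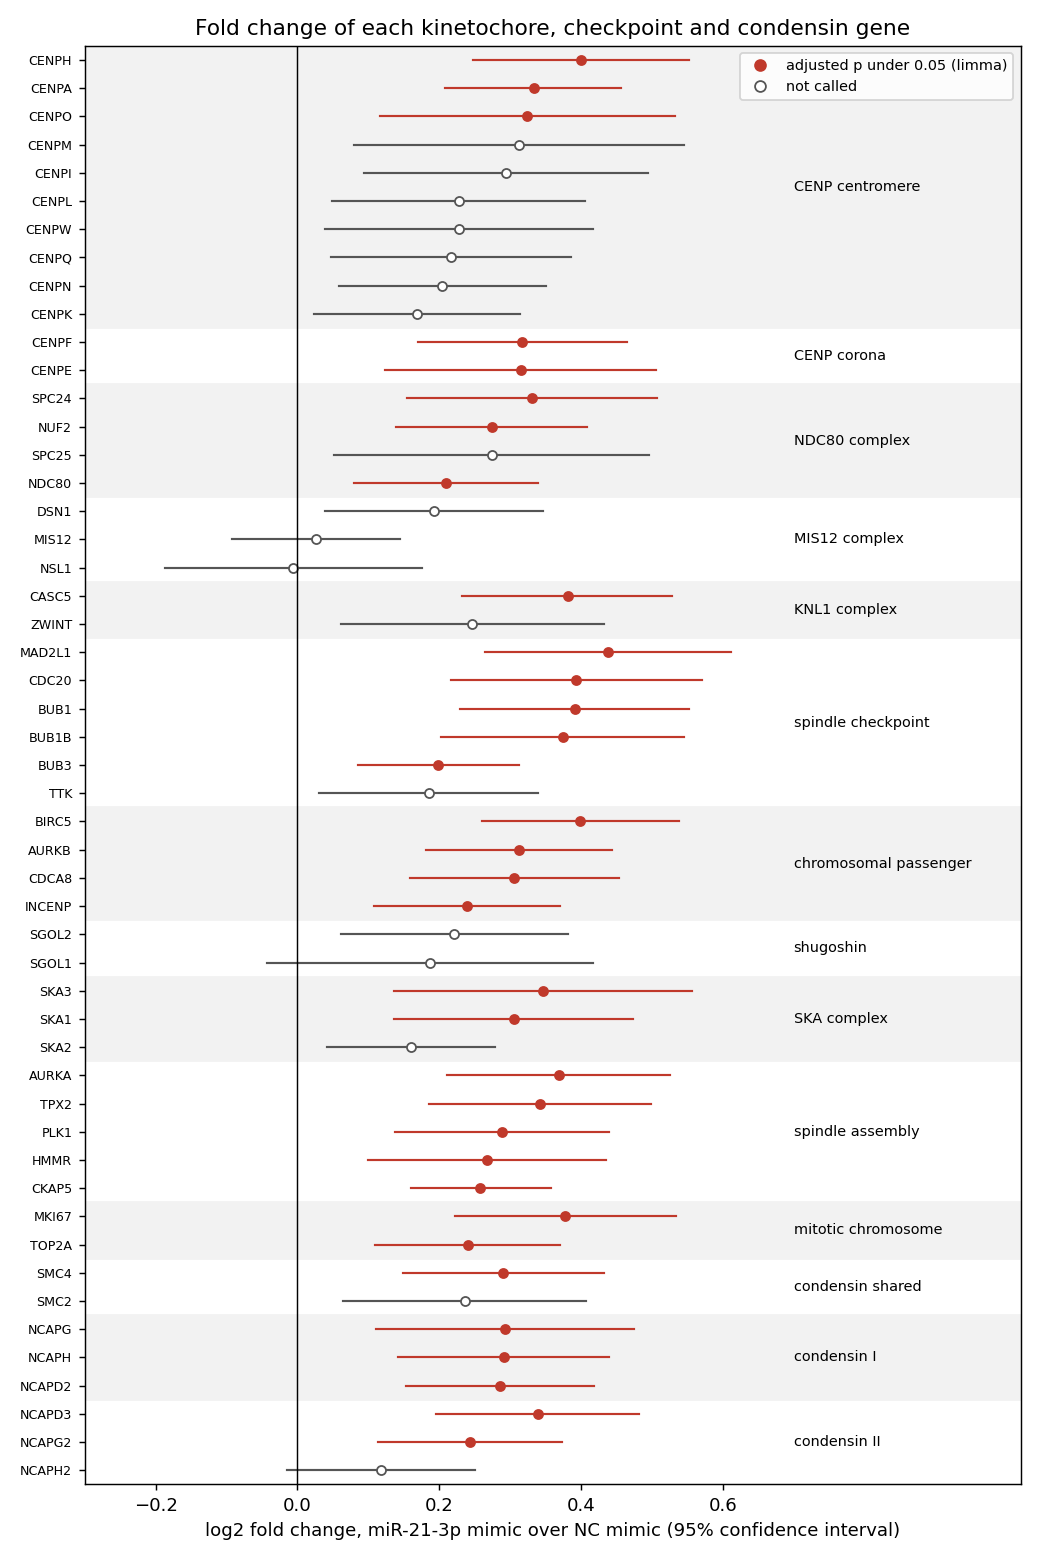
Log2 fold change of each of the 51 genes, miR-21-3p mimic over NC mimic, with 95% confidence intervals from limma, grouped by complex and filled where the adjusted p was under 0.05. Of the 51 points 50 lie above 0, the checkpoint genes have the largest median at 0.38, and MIS12 and NSL1 lie nearest 0.

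The promoter letters were also counted by call. TTTGAA was in 21 of the 27 matched windows of called genes (77.8%) and in 4 of the 14 windows of genes not called (28.6%). CCAAT was in 16 of the 27 (59.3%) and in 10 of the 14 (71.4%). This division follows a threshold that leaving out a library moved, and the difference between the shares was not tested. In GENCODE release 29, 15 of the 51 genes had an exon overlapping another gene on the opposite strand, CENPO, PLK1, MAD2L1, SMC4 and NCAPD3 among them. The labels name a stranded kit but the strand setting of the counting was not given in the sources used here. For these genes reads of the antisense neighbour may therefore be included, or reads of the overlap left out.

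Related mitotic genes outside the list were read from 5 lists made by role. None of the 5 held a gene called lower by limma, with 0 lower at an unadjusted p under 0.05 and 0 by edgeR and by DESeq2, against the 6.11% higher and 4.66% lower of all genes tested. Of 10 mitotic entry genes 7 were called higher, with a median log2 fold change of 0.28. CDK1, the kinase that drives entry, gave 3580, 4490 and 4110 in the NC mimic libraries and 5310, 5500 and 5410 in the miR-21-3p mimic libraries. CCNB1, its cyclin, gave 3050, 3730 and 3310 against 4460, 4190 and 5020. Both had groups far apart, with fold changes of 0.42 and 0.44 (limma adjusted p 0.00554 and 0.00781), and CCNA2, the cyclin acting just before, had 0.39 (adjusted p 0.007). Without NC mimic replicate 2 the count was 9 of 10. CDK1, CCNA2 and CCNB1 were called in all 14 alternatives, CCNB2 and PKMYT1 in 13, MASTL in 10 and CDC25B in 9.

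Among 17 other kinetochore genes 4 were called higher, and 8 without NC mimic replicate 2. With all libraries their median log2 fold change was 0.18, and 14 of the 17 were above 0. CENPC (-0.049), CENPT (-0.017) and MAD2L1BP (-0.024) were below 0, and CENPB (0.06) and CENPP (0.077) were little above it, all uncalled. None of the 4 was called in every alternative run. KNTC1 was called in 12 of the alternatives, HJURP and TRIP13 in 10 each and OIP5 in 9. TRIP13, the ATPase that reopens MAD2L1, gave 444, 579 and 510 in the NC mimic libraries and 661, 627 and 777 in the miR-21-3p mimic libraries. Its groups did not overlap (log2 fold change 0.43, limma adjusted p 0.0217), and HJURP, the chaperone that loads CENPA, and KNTC1, which recruits dynein, had 0.36 and 0.27 (adjusted p 0.0204 and 0.0119). Of 20 genes of the anaphase-promoting complex and separase set 5 were called, and 10 without NC mimic replicate 2. With all libraries their median was 0.13, and 15 of the 20 were above 0. ANAPC4 (-0.115) and CDC16 (-0.11) were the lowest, both uncalled. Each of the 5 lost its call in at least 1 alternative. UBE2C kept it in 13 of the alternatives, ESPL1 in 12, and ANAPC11, UBE2S and PTTG1 in 11 each. UBE2S, the ubiquitin chain elongating enzyme, gave 276, 282 and 276 against 399, 343 and 383. The controls were level and all below the miR-21-3p mimic libraries (0.43, limma adjusted p 0.0112), and PTTG1, or securin, and UBE2C, the chain-starting enzyme, had 0.40 and 0.34 (adjusted p 0.0131 and 0.011).

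Of 13 cohesin genes 4 were called higher, and 5 without NC mimic replicate 2, with a median log2 fold change of 0.06 with all libraries. All 4 lost their call in several of the alternatives. ESCO2 and SMC3 were called in 10 alternatives each, RAD21 in 9 and CDCA5 in 8. ESCO2, the acetyltransferase that locks cohesin during replication, gave 927, 1270 and 1100 in the NC mimic libraries and 1490, 1330 and 1580 in the miR-21-3p mimic libraries. NC mimic replicate 2 came close to miR-21-3p mimic replicate 2 (0.42, limma adjusted p 0.0201), and the ring subunits SMC3 and RAD21 had 0.23 and 0.20 (adjusted p 0.0184 and 0.0314). Of 9 tested genes of the transcription complexes that act on mitotic promoters 3 were called, and 4 without NC mimic replicate 2. With all libraries the median of the 9 was 0.16, and 7 were above 0. These 3 calls were also lost in several of the alternatives. MYBL2 was called in 11 alternatives, TFDP1 in 10 and FOXM1 in 9. MYBL2, which joins the MuvB core for that purpose, gave 889, 1110 and 966 against 1310, 1220 and 1490. The groups did not overlap (0.44, limma adjusted p 0.0116), and TFDP1, the partner of E2F proteins, and FOXM1, which follows MYBL2, had 0.25 and 0.20 (adjusted p 0.0195 and 0.0223).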

How the data were processed

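RNA of 6 HaCaT libraries, polyadenylated per the labels, was sequenced by the authors, whose processing notes name bcl2fastq 2.18.12, cutadapt 1.15, TopHat2 2.1.1, featureCounts of Subread 1.5.2 and DESeq2. Genome build and annotation were not given in the sources used here. The deposited signal was a gene count divided by a size factor and rounded to 3 significant digits. A count test had been planned, but because values were normalised, limma 3.58.1 with trend in R 4.3.3 was used on log2(value + 1), for genes of at least 10 in at least 3 libraries. Fold changes on that scale understate changes of low genes. Whole reads were recovered for 100% of values under 100 in each library (tolerance 0.1 reads), and edgeR 4.0.16 on them called 878 genes higher and 760 lower, an alternative added after the data were seen. DESeq2 1.42.0, RLE factors, scaling to totals, no filter, other pseudocounts, a replicate block and leaving out each library were also run. Scripts were tested on simulated data. Members and lists were chosen with earlier results of these data known. Values in all libraries were printed, for each complex, for the member with the highest mean, the called member with the largest fold change and each member not called, and in other lists at most 3 called genes with the largest fold change were named. CENPA, CENPE, CENPO, CDC20 and PLK1 were given in full, and motifs, the 50-base distance and printed promoters chosen, after values were seen. Promoters are RefSeq, GRCh38.p14.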

Additional observations from a re-analysis of the deposited data

How the results depend on the processing

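Under the 8 alternatives that keep all libraries, each count of calls stayed within 1.5 times its main value. Members called higher numbered 33 by edgeR with TMM or RLE factors, 34 by DESeq2, 30 with total scaling, 31 without the filter and 33 with pseudocounts of 0.5 or 5, and members called lower 0 throughout. With all libraries kept and no replicate block, calls were lost for CENPO and HMMR (total scaling, no filter), NCAPG (total scaling) and NDC80 (DESeq2), and gained for CENPI and SMC2 (DESeq2). The median stayed between 0.28 and 0.29. The replicate block called 681 genes higher and 512 lower in all, and 31 members higher, with a median of 0.29, without calls for NDC80 (adjusted p 0.0888) and BUB3 (0.0527). As a check of pairing, deviations of same-numbered libraries correlated over genes at -0.002, -0.199 and -0.161, so these values show no pairing by number. No library correlated best with its own number, and the highest value, 0.267, was between NC mimic replicate 2 and miR-21-3p mimic replicate 3. Whether the libraries were prepared in pairs cannot be read from these correlations. Leaving out a library gave 95 to 1627 genes higher, 81 to 1330 lower, 2 to 46 members higher and a member median of 0.22 to 0.36. The lowest counts came without NC mimic replicate 3 and the highest without NC mimic replicate 2. Counts of genes also moved by over 1.5 times without NC mimic replicate 1 (313 higher, 229 lower, 11 members), miR-21-3p mimic replicate 1 (146, 131, 9) and miR-21-3p mimic replicate 3 (202, 163, 9). These fits have fewer samples, and the cause of the differences between them was not tested. Of the members, only MIS12 and NSL1 changed sign, both uncalled: MIS12 to -0.001 without NC mimic replicate 1 (range over libraries left out -0.001 to 0.067), and NSL1 to 0.089 without NC mimic replicate 2 and 0.019 without miR-21-3p mimic replicate 1 (range -0.074 to 0.089). With 3 libraries a group, calls depend on single libraries, and at 24402972 to 27982497 reads the replicate pairs differed by 1.74 to 3.37 times the counting variance (chi-square per degree of freedom).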
